A study of Mus musculus with 6 samples.

Results

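Pulmonary surfactant genes and genes of surfactant lipid handling in alveolar type 2 cells were examined in whole lung of mice given IL-13. The 8 genes were Sftpa1, Sftpb, Sftpc, Sftpd, Abca3, Lpcat1, Lamp3 and Napsa, and every probe set that the platform annotation assigns to 1 of them alone was read separately. This gave 16 probe sets of 7 genes among 45037 probe sets on the array. Lamp3, a membrane glycoprotein of lamellar bodies, was annotated only to 1 probe set that it shares with Ppid, so it has no value of its own here.

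RNA came from adult BALB/c mice of 3 genotypes, with 2 Affymetrix mouse expression arrays per genotype and 1 pool of 4 mice per array. WT mice were Il4r +/+ without the transgene, IL4R KO mice were Il4r -/- without the transgene, and IL4R KO + SMP8-IL4R mice were Il4r -/- and carried an IL4R transgene (+/-) driven by the SMP8 promoter, described in the design text as specific to smooth muscle. Every group, controls included, received 2 to 3 µg of IL-13 into the trachea once a day for 7 days, with lung collection 24 hours after dosing ended. No untreated lung was part of the design, so each comparison is between genotypes under IL-13. How many transgenic lines were used is not given in the sources used here.

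Surfactant is the lipid and protein film that lowers surface tension in the alveoli. Type 2 cells synthesise its phosphatidylcholine, pack it with the small hydrophobic proteins SP-B and SP-C into lamellar bodies, and secrete these into the airspace. SP-A and SP-D are large collagen-like lectins, called collectins, that bind microbes and take part in surfactant turnover, and airway club cells also make SP-A, SP-B and SP-D. IL-13 signals through a receptor that contains the IL-4 receptor alpha chain, and it is known for mucous change of the airway epithelium.

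In WT lungs the collectin genes and the lipid handling genes lay on opposite sides of their levels in IL4R KO lungs, and of these Lpcat1 passed the test. Lpcat1, the acyltransferase that makes the dipalmitoyl phosphatidylcholine of surfactant, fell by 0.56 to 0.62 on the log2 scale in its 3 bright probe sets. Sftpb, Abca3 and Napsa were also lower in WT, and Sftpa1 and Sftpd were higher, with differences of 0.22 to 0.35 in size in their bright probe sets that did not pass over all probe sets. Sftpc showed no difference beyond the spread between pools, but its bright probe set was the brightest on every array, where the normalization can compress a difference. The brightest probe sets of Sftpa1, Sftpb and Sftpd also lay near the top, where this can apply as well. The transgenic lungs stood near IL4R KO for the brightest probe set of each gene, and no member passed in that comparison.

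Sequence upstream of the gene start is shown for Lpcat1, the member that passed, for Sftpa1 and Sftpb, which differed in opposite directions, and for Abca3, the lipid transporter. The windows hold 250 bases before and 50 after the start, from RefSeq on GRCm38.p6, all on the plus strand: Sftpa1 at chr14:41131538-41131837, Sftpb at chr6:72304360-72304659, Abca3 at chr17:24351773-24352072 and Lpcat1 at chr13:73466981-73467280. Of the 8 genes, 5 had such a window, and none was used for Sftpc, Sftpd and Napsa. Capitals mark matches, on either strand, to short forms of the motifs of Nkx2-1 (CTCAAG), FOXA factors (TGTTTNC), STAT6 (TTC and GAA with 4 bases between them), C/EBP factors (TTGCNNAA) and SREBP factors (TCACNCCAC).
Sftpa1: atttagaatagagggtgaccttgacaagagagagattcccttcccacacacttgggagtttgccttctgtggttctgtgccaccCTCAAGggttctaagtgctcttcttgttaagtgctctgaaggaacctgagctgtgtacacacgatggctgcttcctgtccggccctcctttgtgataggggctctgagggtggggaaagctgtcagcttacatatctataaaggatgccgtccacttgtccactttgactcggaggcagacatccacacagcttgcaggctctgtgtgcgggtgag
Sftpb: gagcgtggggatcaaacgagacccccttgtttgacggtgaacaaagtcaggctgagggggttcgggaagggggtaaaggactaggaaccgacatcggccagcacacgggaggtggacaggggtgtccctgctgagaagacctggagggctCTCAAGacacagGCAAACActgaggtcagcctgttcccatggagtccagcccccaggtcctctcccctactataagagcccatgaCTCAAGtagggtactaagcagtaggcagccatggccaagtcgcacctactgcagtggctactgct
Abca3: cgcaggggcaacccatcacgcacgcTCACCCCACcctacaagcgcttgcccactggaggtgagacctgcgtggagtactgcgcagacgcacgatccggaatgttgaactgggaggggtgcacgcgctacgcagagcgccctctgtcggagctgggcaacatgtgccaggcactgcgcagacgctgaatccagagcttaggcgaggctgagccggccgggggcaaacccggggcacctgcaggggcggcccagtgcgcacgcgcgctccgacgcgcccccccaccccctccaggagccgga
Lpcat1: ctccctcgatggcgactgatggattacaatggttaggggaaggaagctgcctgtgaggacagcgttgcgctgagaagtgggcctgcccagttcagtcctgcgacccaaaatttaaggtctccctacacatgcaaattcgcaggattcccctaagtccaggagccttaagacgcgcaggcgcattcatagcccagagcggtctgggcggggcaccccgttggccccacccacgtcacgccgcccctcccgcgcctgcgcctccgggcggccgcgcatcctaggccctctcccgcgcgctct
The Sftpb window held CTCAAG at 100 and 15 bases before the start and a FOXA match on the opposite strand, GCAAACA, at 88 bases before it, and none of these overlapped. Sftpa1 held CTCAAG at 166 bases before its start. Abca3 held the SREBP form, TCACCCCAC, at 225 bases before its start, and the Lpcat1 window held none of the motif forms. Of 32851 promoter windows of this length, 15.9% held the Nkx2-1 form, 20.5% the FOXA form, 6.95% the STAT6 form, 10.8% the C/EBP form and 1.24% the SREBP form. The matches describe letters in these windows and are not measured binding sites.

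Array medians lay between 7.08 and 7.11 on the log2 scale. Some arrays stood apart. IL4R KO pool 1 and WT pool 2 held liver transcripts, with albumin (Alb) at 12.26 and 11.81 against 5.68 to 5.93 in the other 4 arrays, and IL4R KO pool 2 was low in the Y-linked Eif2s3y, at 4.27 against at least 8.49 elsewhere. The brightest probe set of Il4ra, the targeted gene, read 9.35 and 9.55 in the IL4R KO pools, 9.64 and 9.81 in the WT pools, and 9.98 and 9.84 in the transgenic pools. A dimmer probe set of the same gene gave another order, 8.92 and 8.93 in the IL4R KO pools, 9.23 and 9.29 in the WT pools, and 8.94 and 8.80 in the transgenic pools. The position of these probes relative to the deletion and to the transgene is unknown, so the labels cannot be checked with them. Ranked by signal, which does not measure transcript abundance between genes, the brighter Sftpc probe set was 1 of 45037 in all 6 arrays. Of the 16 probe sets, 14 exceeded the median over all probe sets and arrays in 2 or more arrays; the exceptions were Sftpc 1438290_x_at (mean 5.96) and Lpcat1 1420294_at (mean 4.94).

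**Figure D1:**
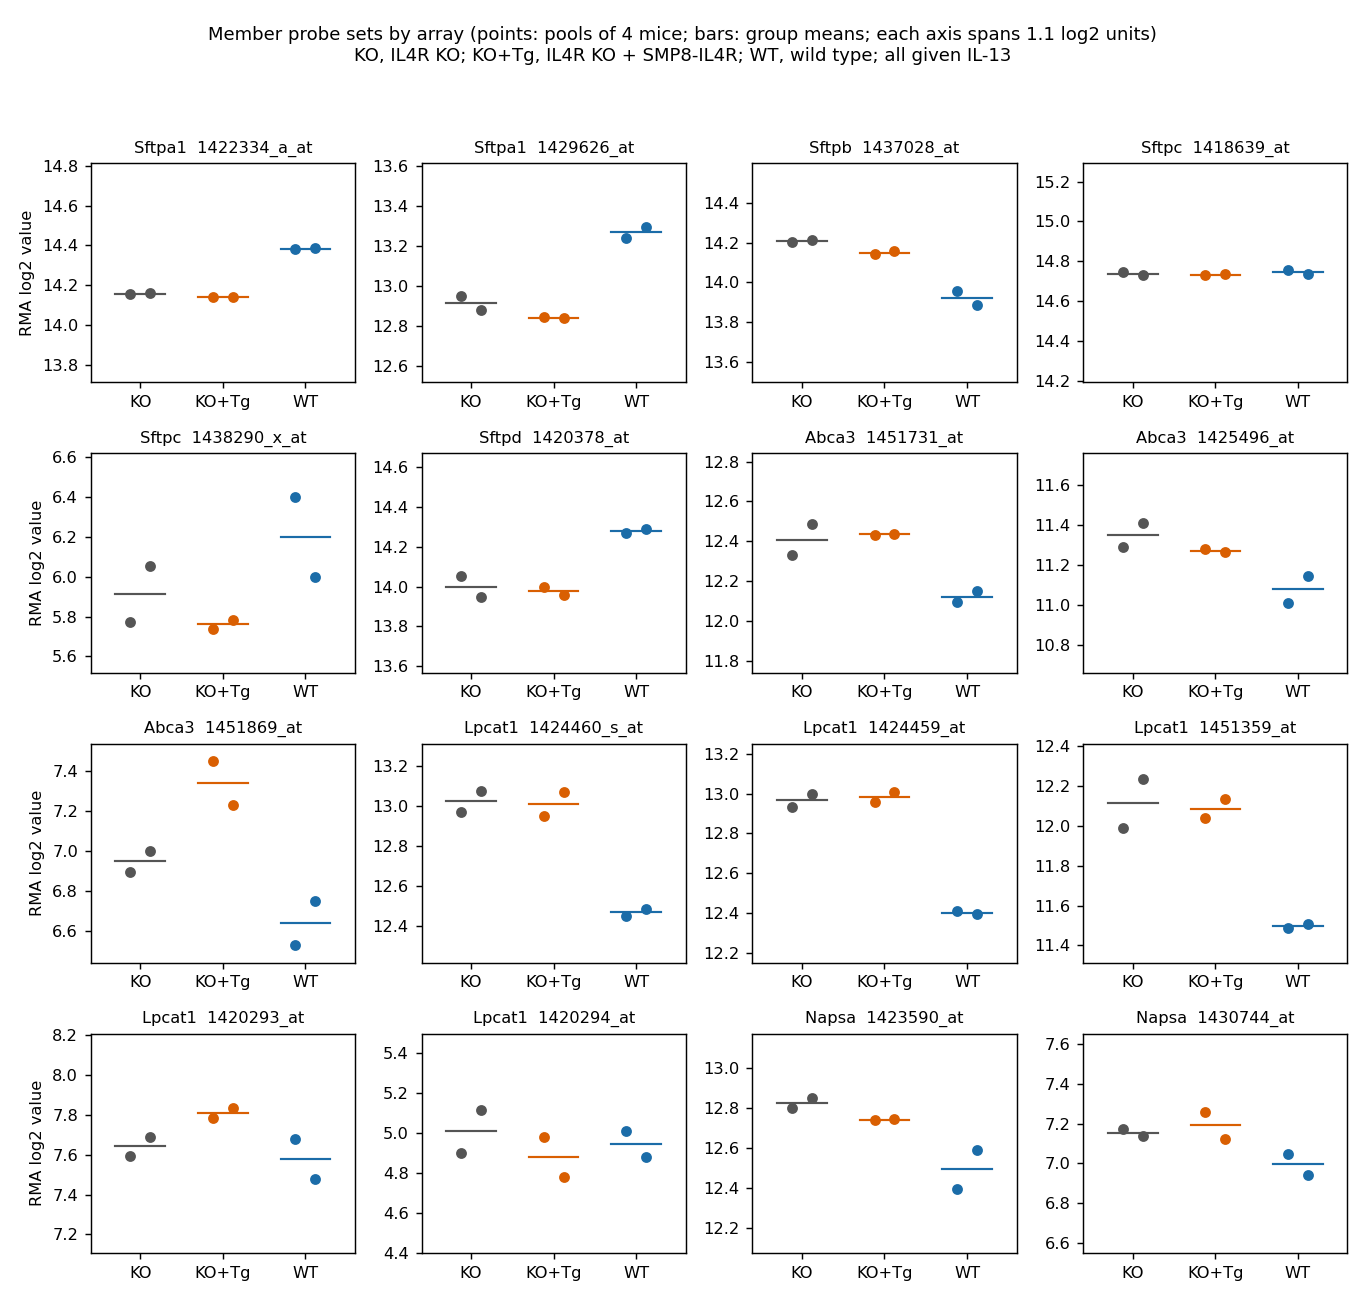
RMA log2 values of the 16 member probe sets in each of the 6 arrays, with points for pools, short bars for group means and the same span of the vertical axis in every panel. WT pools of Sftpa1 and Sftpd lie above the other arrays, those of Sftpb, Abca3, Napsa 1423590_at and the 3 bright Lpcat1 probe sets lie below them, and the bright Sftpc probe set stays between 14.73 and 14.76.

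WT was compared with IL4R KO to see what loss of the receptor from all cells changed. Lpcat1 was read by 5 probe sets. Probe set 1424459_at read 12.41 and 12.39 in the WT pools, 12.93 and 13.00 in the IL4R KO pools, and 12.96 and 13.01 in the transgenic pools. Both WT pools were below all other arrays, and the other 4 arrays lay within 0.08 of each other. The probe set fell by 0.56 in WT (SE 0.0736, 95% interval -0.74 to -0.39, limma adjusted p = 0.0202), to 0.676 times the IL4R KO level. Probe set 1424460_s_at, whose suffix marks probes that can bind related transcripts, read 12.45 and 12.48 in the WT pools, 12.97 and 13.08 in the IL4R KO pools, and 12.95 and 13.07 in the transgenic pools. It fell by 0.56 (SE 0.0825, limma adjusted p = 0.0303), and both WT pools were below all other arrays. Probe set 1451359_at read 11.49 and 11.51 in the WT pools, 11.99 and 12.24 in the IL4R KO pools, and 12.04 and 12.14 in the transgenic pools, and it fell by 0.62 (SE 0.10, limma adjusted p = 0.0413). In each of these 3 bright probe sets both WT pools were the lowest arrays. In whole lung RNA, fewer type 2 cells and less RNA per type 2 cell cannot be told apart.

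The other Lpcat1 probe sets, 1420293_at and 1420294_at, were dim. They gave values from 7.48 to 7.83 and from 4.78 to 5.12, their WT and IL4R KO pools overlapped, and each differed by -0.06 in WT (SE 0.0924 and 0.112, limma adjusted p = 0.782 and adjusted p = 0.826). In all, 3 of 16 member probe sets passed in WT against IL4R KO, all lower in WT and all of Lpcat1, beside 1.58% of all 45037 probe sets called in either direction (0.999% higher and 0.577% lower in WT). The calls were lost without any 1 of the WT or transgenic arrays. For 1424459_at the difference was -0.57 without WT pool 1 (limma adjusted p = 0.187), -0.56 without WT pool 2 (adjusted p = 0.185), and -0.56 without either transgenic pool (adjusted p = 0.0686 in both cases), which changes the shared spread alone; 1424460_s_at and 1451359_at lost their calls in the same 4 fits, with differences of -0.54 to -0.62 and limma adjusted p from 0.0789 to 0.29. All 3 kept their calls without IL4R KO pool 1 (-0.60, -0.61 and -0.74) or IL4R KO pool 2 (-0.53, -0.50 and -0.49), and none passed without both arrays that held liver transcripts (-0.59, -0.63 and -0.75, limma adjusted p from 0.0552 to 0.0857).

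Abca3 encodes the transporter that moves phospholipid across the lamellar body membrane. Its brightest probe set, 1451731_at, read 12.10 and 12.15 in the WT pools, 12.33 and 12.49 in the IL4R KO pools, and 12.43 and 12.44 in the transgenic pools. Probe set 1425496_at read 11.01 and 11.15 in the WT pools, 11.29 and 11.41 in the IL4R KO pools, and 11.28 and 11.26 in the transgenic pools. Both WT pools were the lowest arrays in each probe set, and the differences from IL4R KO were -0.28 (SE 0.0829, limma adjusted p = 0.177) and -0.27 (SE 0.0860, limma adjusted p = 0.201). The dimmer 1451869_at read 6.53 and 6.75 in the WT pools, 6.90 and 7.00 in the IL4R KO pools, and 7.45 and 7.23 in the transgenic pools, a difference of -0.31 in WT (SE 0.114, limma adjusted p = 0.257). The 3 Abca3 probe sets therefore gave like values, with 95% intervals below 0, and none passed over all probe sets.

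Sftpb encodes SP-B, which is needed to form lamellar bodies and to spread the surface film. Its probe set 1437028_at read 13.96 and 13.89 in the WT pools, 14.20 and 14.21 in the IL4R KO pools, and 14.14 and 14.16 in the transgenic pools. The 3 groups did not overlap, with WT lowest and IL4R KO highest. The difference between WT and IL4R KO was -0.29 (SE 0.0725, 95% interval -0.46 to -0.11) and did not pass (limma adjusted p = 0.136). Napsa encodes napsin A, an aspartic protease that helps to cut the SP-B precursor. Its bright probe set 1423590_at read 12.40 and 12.59 in the WT pools, 12.80 and 12.85 in the IL4R KO pools, and 12.74 in both transgenic pools. WT was again lowest, with a wider gap between its pools than in the other groups, and the difference from IL4R KO was -0.33 (SE 0.0883, limma adjusted p = 0.149). The dim Napsa probe set 1430744_at, with values from 6.94 to 7.26, differed by -0.16 (SE 0.0838, limma adjusted p = 0.410).

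The collectins differed the other way. Sftpa1, which encodes SP-A, read 14.38 and 14.39 in the WT pools, 14.15 and 14.16 in the IL4R KO pools, and 14.14 in both transgenic pools by probe set 1422334_a_at. Probe set 1429626_at read 13.24 and 13.29 in the WT pools, 12.95 and 12.88 in the IL4R KO pools, and 12.84 in both transgenic pools. In each, both WT pools were above every other array, by more than the gap between pools of any group. The differences from IL4R KO were 0.22 (SE 0.0697, limma adjusted p = 0.198) and 0.35 (SE 0.0733, limma adjusted p = 0.0843) and did not pass. Sftpd, which encodes SP-D, read 14.27 and 14.29 in the WT pools, 14.05 and 13.95 in the IL4R KO pools, and 14.00 and 13.96 in the transgenic pools by its probe set 1420378_at. WT was again the highest group, and the difference of 0.28 (SE 0.0761, 95% interval 0.10 to 0.46) did not pass (limma adjusted p = 0.157). In the RefSeq table Sftpa1 and Sftpd lie on either side of Mbl1, a collectin gene made mainly in liver. Mbl1, looked up after the Sftpa1 and Sftpd values were seen, had values from 6.90 to 7.33, with the highest in IL4R KO pool 1, and differed by -0.20 in WT (limma adjusted p = 0.525).

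Sftpc encodes SP-C, a membrane-embedded peptide that is made by type 2 cells alone. Its probe set 1418639_at read 14.76 and 14.74 in the WT pools, 14.74 and 14.73 in the IL4R KO pools, and 14.73 and 14.74 in the transgenic pools. All 6 arrays overlapped, and the difference between WT and IL4R KO was 0.0094 (SE 0.0699, 95% interval -0.16 to 0.18, limma adjusted p = 0.966). This probe set was the brightest on every array, and quantile normalization, which makes the value distributions of arrays alike, can compress a difference there. Sftpa1 1422334_a_at, Sftpd and Sftpb also ranked near the top, at 11 to 23, 18 to 40 and 20 to 48 over the arrays. The same limit can apply to the sizes of their differences. The dim Sftpc probe set 1438290_x_at read 6.40 and 6.00 in the WT pools, 5.77 and 6.05 in the IL4R KO pools, and 5.74 and 5.78 in the transgenic pools. Its WT and IL4R KO pools overlapped, and the difference was 0.28 (SE 0.151, limma adjusted p = 0.413).

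WT and IL4R KO pools did not overlap for 12 of the 16 probe sets, 3 higher and 9 lower in WT, beside 45.8% of all probe sets. The unadjusted p was under 0.05 for 11 of 16, beside 16% of all. The median difference over the 16 probe sets was -0.22, and over all probe sets it was 6e-04. Several probe sets read the same gene, so these counts are not over independent measurements. Calls depended on how the spread was estimated: with an intensity trend and robust hyperparameters, 8 of 16 passed, beside 1075 of all probe sets. That fit added both Sftpa1 probe sets (limma adjusted p = 0.0173 and adjusted p = 0.00873), Sftpd (adjusted p = 0.0201), Sftpb (adjusted p = 0.0111) and Napsa 1423590_at (adjusted p = 0.0459) to the 3 of Lpcat1, and none of Abca3, whose lowest was adjusted p = 0.0627.

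**Figure D2:**
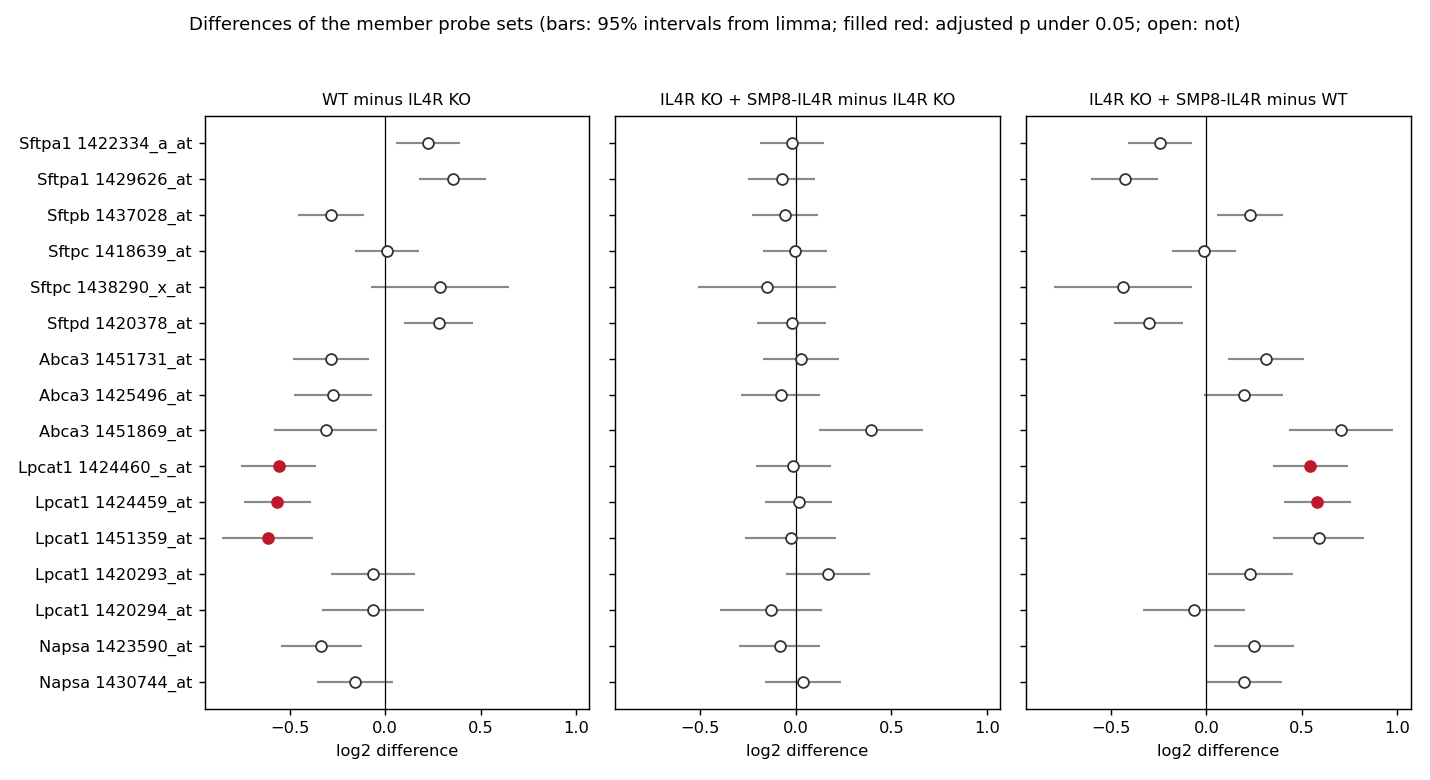
Log2 differences of the 16 member probe sets in the 3 comparisons, with 95% intervals from limma as bars and filled red points for adjusted p under 0.05. The WT column holds 3 red points, all of Lpcat1 and all below 0, the column of transgenic against IL4R KO lungs holds none, and the column of transgenic against WT lungs holds 2, both of Lpcat1.

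Transgenic and IL4R KO lungs were set against each other to see what expression of the receptor from the smooth muscle promoter changed. The brightest probe sets of the 7 genes differed by -0.08 to 0.03, with 95% intervals that lay between -0.30 and 0.22. Lpcat1 differed by -0.01, 0.02 and -0.03 in its 3 bright probe sets, Sftpb by -0.06, Sftpd by -0.02, and Sftpa1 by -0.02 and -0.07. The intervals for Lpcat1 1424459_at, -0.16 to 0.19, did not reach the size of its difference in WT. With limma, 0 of 16 member probe sets passed, beside 0.0155% of all probe sets. The unadjusted p was under 0.05 for 1 of 16, beside 11.3% of all, and the fit with an intensity trend also called 0. Pools did not overlap for 7 of 16, beside 42.1% of all.

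The 1 exception at the unadjusted level was the dim Abca3 probe set 1451869_at. It was 0.39 higher in transgenic lungs (SE 0.114, 95% interval 0.12 to 0.66) and did not pass (limma adjusted p = 0.341). The brighter Abca3 probe sets differed by 0.03 (95% interval -0.17 to 0.22) and -0.08 (-0.29 to 0.13), so the probe sets of this gene did not give like values in this comparison.

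Set against WT, the transgenic lungs had higher values in the bright Lpcat1 probe sets. Probe sets 1424459_at and 1424460_s_at rose by 0.58 (SE 0.0736, limma adjusted p = 0.0210) and 0.54 (SE 0.0825, limma adjusted p = 0.0403), and 1451359_at differed by 0.59 without passing (limma adjusted p = 0.0584). The dim 1420293_at and 1420294_at differed by 0.23 and -0.07 without passing (limma adjusted p = 0.310 and adjusted p = 0.821). This comparison uses the same WT arrays as WT against IL4R KO, so it is not separate evidence. Sftpa1 differed by -0.24 and -0.43 (limma adjusted p = 0.190 and adjusted p = 0.0603), Sftpd by -0.30 (adjusted p = 0.154), Sftpb by 0.23 (adjusted p = 0.223), Napsa 1423590_at by 0.25 (adjusted p = 0.264) and Abca3 by 0.31, 0.19 and 0.70 (adjusted p = 0.170, adjusted p = 0.348 and adjusted p = 0.0506). In all 2 of 16 passed, both higher in transgenic lungs, beside 1.04% of all probe sets (0.273% higher and 0.770% lower), and pools did not overlap for 14 of 16, beside 54.7% of all. For 1424459_at the call was lost without transgenic pool 1 (0.61, limma adjusted p = 0.158), transgenic pool 2 (0.55, adjusted p = 0.200), WT pool 1 (0.59, adjusted p = 0.190) or WT pool 2 (0.57, adjusted p = 0.211), and 1424460_s_at lost it in the same fits (0.48 to 0.60, limma adjusted p from 0.186 to 0.290).

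Without IL4R KO pool 1 or IL4R KO pool 2, transgenic against WT called 5 member probe sets in place of 2, and 1064 of all 45037 probe sets in place of 470. Leaving out an IL4R KO pool changes the shared spread alone in this comparison. The added probe sets were Lpcat1 1451359_at (limma adjusted p = 0.0183), Abca3 1451869_at (adjusted p = 0.0410) and Sftpa1 1429626_at (adjusted p = 0.0373), the last lower in the transgenic lungs.

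Over the 6 arrays, the brightest probe sets of the 7 genes gave 21 pairs, and these correlations are a description over arrays that fall into 3 genotypes. Sftpa1 and Sftpd had a Pearson r of 0.968. Sftpb, Abca3, Lpcat1 and Napsa were positively correlated with each other, from 0.852 (Sftpb and Napsa) to 0.968 (Abca3 and Lpcat1). Each of these genes was negatively correlated with both collectins, from -0.863 (Sftpd and Napsa) to -0.988 (Sftpd and Lpcat1). Sftpc, with a range of 0.03 over the arrays, had values from -0.767 with Abca3 to 0.637 with Sftpd.

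The genes whose profile over the 6 arrays was most like each member were sought among 1455 bright genes that spanned at least 0.5 on the log2 scale. For Sftpa1 these were Fcgbp (Pearson r 0.9996) and Chia1 (0.9994), which differed between WT and IL4R KO by 2.83 and 3.00. For Sftpd they were Trem2 (0.996) and Mmp12 (0.996), with differences of 0.53 and 4.49, and for Sftpc Creld2 (0.969) and Cpox (0.920). For Lpcat1 they were Btla (0.997) and Cep70 (0.992), with differences of -0.96 and -0.44. Sftpb was most like Ighm (0.998) and Gfra1 (0.995), Abca3 most like Irf8 (0.997) and Abcb1a (0.991), and Napsa most like Alas2 (0.992) and Rac3 (0.990). With 2 arrays per genotype, a gene that sets WT apart from the other arrays tends to have a high r here. The bright Sftpc probe set stayed between 14.73 and 14.76 and its groups overlapped, so its r values rest on small differences between arrays.

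The genes around the members in the surfactant pathway were given by lists of type 2 cell, lipid synthesis, lamellar body, transcription factor and clearance genes, each gene by its brightest probe set. Of 99 distinct list genes, 4 rose and 1 fell in WT against IL4R KO, beside 2.29% of all 18193 genes called in either direction by their brightest probe set. Their median was -0.04, and over all genes it was -0.0033. None passed between transgenic and IL4R KO lungs in limma, beside 0.0275% of all genes. There 14 of 99 had an unadjusted p under 0.05, beside 11.3% of all probe sets. That base also holds dim probe sets and those without a gene, here and for the unadjusted counts of the lists below. No unadjusted share is given for the brightest probe set of each gene. In transgenic against WT lungs 1 rose and 4 fell, beside 1.5% of all genes. In WT against IL4R KO, 2 list genes passed when any 1 WT or transgenic array was left out, 8 when IL4R KO pool 2 was, and 15 with an intensity trend. In transgenic against WT lungs, 1 passed without WT pool 1 or transgenic pool 1, 2 without WT pool 2 or transgenic pool 2, and 8 without either IL4R KO pool.

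Of 22 other type 2 cell genes, 1 rose, the alarmin Il33, and 0 fell, with a list median of -0.05. Il33 read 12.12 and 12.19 in the WT pools, 10.99 and 10.84 in the IL4R KO pools, and 11.44 and 11.23 in the transgenic pools, and it rose by 1.24 in WT (SE 0.0991, limma adjusted p = 0.00281). Its transgenic pools lay between the others, 0.42 above IL4R KO without passing (limma adjusted p = 0.301) and 0.82 below WT (adjusted p = 0.0181). By its brightest probe set the lung chemokine Cxcl15 differed by 0.29 without passing (limma adjusted p = 0.152). Its other probe set, at a mean level of 13.06, differed by 0.57 and passed (limma adjusted p = 0.048). The fatty acid carrier Fabp5 differed by 0.46 (adjusted p = 0.0789) and the proteoglycan Sdc1 by -0.28 (adjusted p = 0.141).

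Of 28 phosphatidylcholine and fatty acid synthesis genes, 1 rose and 0 fell, and 19 of the 28 had values below 0, with a median of -0.12. The gene that rose, Me1, the malic enzyme that supplies NADPH for fatty acid synthesis, read 11.48 and 11.47 in the WT pools, 10.31 and 10.71 in the IL4R KO pools, and 10.24 and 10.09 in the transgenic pools. Me1 rose by 0.96 (SE 0.137, limma adjusted p = 0.0267), and its other probe set gave 0.95. The acyltransferase Agpat2 differed by -0.56 (limma adjusted p = 0.0912) and the lipogenic transcription factor Srebf1 by -0.26 (adjusted p = 0.160). The median of this list was also -0.12 between transgenic and IL4R KO lungs, where 20 of 28 lay below 0.

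Of 22 lamellar body assembly, sorting and secretion genes, 1 rose. This was P2ry2, the ATP and UTP receptor that triggers surfactant secretion, which read 8.12 and 8.14 in the WT pools, 7.16 in both IL4R KO pools, and 7.19 and 7.18 in the transgenic pools. P2ry2 rose by 0.97 (SE 0.0698, limma adjusted p = 0.00188). By its brightest probe set the ubiquitin ligase Nedd4l differed by -0.47 without passing (limma adjusted p = 0.0812). A dimmer Nedd4l probe set, at a mean level of 7.28, differed by -0.86 and passed (limma adjusted p = 0.00882). The same probe set was 0.64 higher in transgenic lungs than in WT (limma adjusted p = 0.0333). The remaining Nedd4l probe sets differed by -0.22 to -0.59 in WT against IL4R KO without passing. The membrane fusion gene Snap23 differed by 0.34 (adjusted p = 0.0902) and the lysosomal membrane gene Lamp2 by 0.26 (adjusted p = 0.168). None of 15 surfactant transcription factors passed in limma (2 at an unadjusted p under 0.05, beside 16% of all probe sets), with a median of -0.14. Elf3 differed by 0.48 (limma adjusted p = 0.0931), Cebpa by -0.22 (adjusted p = 0.293), Stat3 by -0.17 (adjusted p = 0.342) and Hopx by -0.14 (adjusted p = 0.396). Nkx2-1, named after its values were seen because its motif was searched above, was dim, at 7.37 to 7.92, and differed by -0.18 (adjusted p = 0.496).

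Of 16 surfactant uptake and clearance genes, which act largely in alveolar macrophages, 1 rose and 1 fell. The lysosomal lipase Lipa rose by 0.47 (limma adjusted p = 0.0395), and its other probe sets gave 0.54 and 0.35. The scavenger receptor Marco fell by 0.50 (adjusted p = 0.0469) at a level of 5.84 to 6.97, and its other probe set gave -0.04. Marco was higher in transgenic lungs than in WT by 1.02 (limma adjusted p = 0.00395), while its other probe set differed by 0.20 without passing (adjusted p = 0.368). The GM-CSF receptor chain Csf2ra and its ligand Csf2 differed by 0.54 and 0.52 without passing (adjusted p = 0.0531 and adjusted p = 0.0807).

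**Figure D3:**
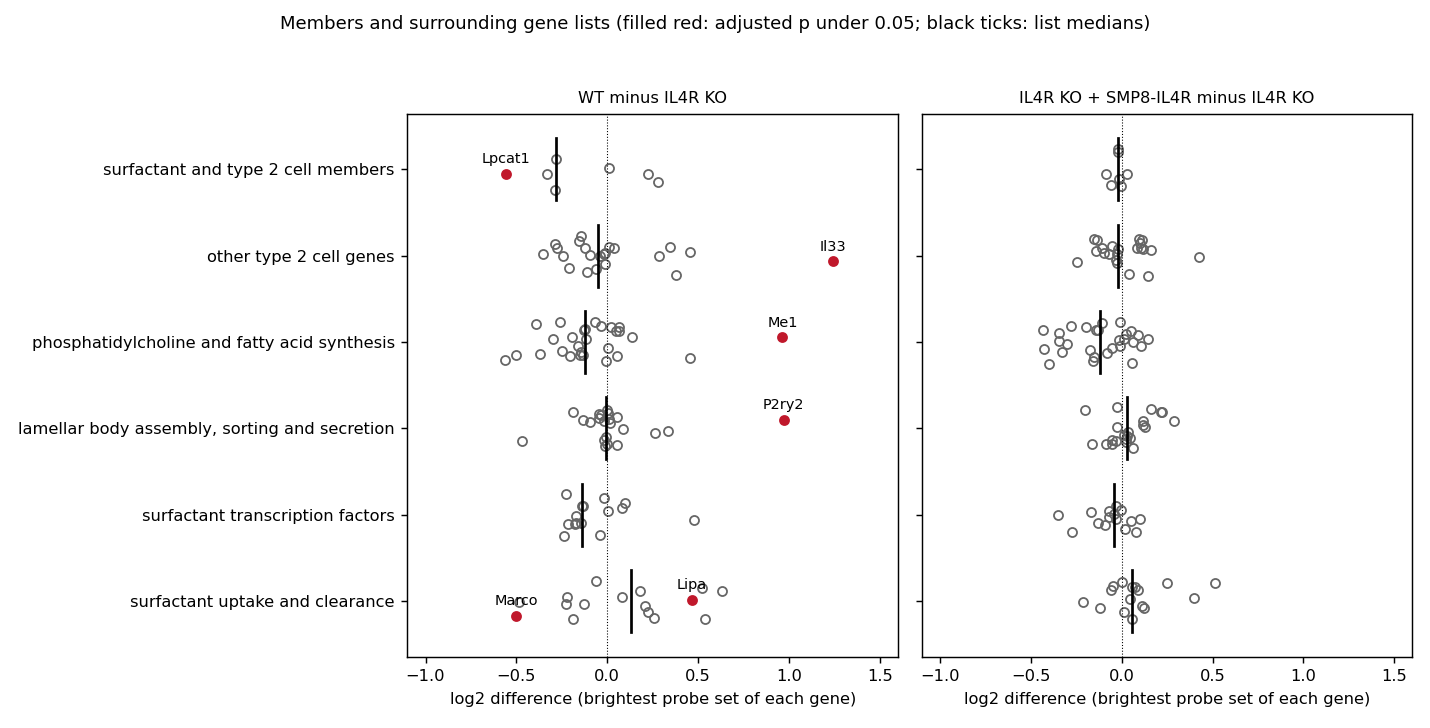
Log2 differences of the 7 member genes and of the 5 surrounding gene lists, 1 point per gene by its brightest probe set, for WT and for transgenic lungs against IL4R KO. Red points passed at adjusted p under 0.05 and black ticks mark list medians; Il33, Me1, P2ry2 and Lipa lie above 0 and Lpcat1 and Marco below it in WT, and no point is red in the transgenic column.

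Markers of other cells were set beside these values. Of 12 alveolar type 1 markers, 0 passed in WT against IL4R KO with limma (1 at an unadjusted p under 0.05, beside 16% of all probe sets). Their median was -0.10, and the bright markers Ager and Cav1 differed by -0.10 and -0.05. Over that list the level averaged 12.11 and 12.13 in the WT pools, 12.17 and 12.26 in the IL4R KO pools, and 12.16 and 12.20 in the transgenic pools. Club cells, which also express Sftpa1, Sftpb and Sftpd, had 1 marker higher and 3 lower in WT among 11. Scgb1a1 and Cyp2f2, the brightest, differed by 0.06 and -0.20 without passing. Those that passed, named after their values were seen, were Bpifb1 (1.28), Scgb3a2 (-0.54), Bpifa1 (-0.62) and Selenbp1 (-0.64). The mean level of the club list was 13.01 and 12.93 in the WT pools, 13.04 and 13.03 in the IL4R KO pools, and 12.87 and 12.96 in the transgenic pools. The part of these cells in the Sftpa1, Sftpb and Sftpd values was not tested.

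Alveolar macrophage markers had 4 higher and 2 lower among 9 in WT, with Chil3 at 2.33 and Car4, which did not pass, at 0.13. The markers that were lower were Marco at -0.50 and Fabp4 at -1.52, and the others that were higher were Itgax at 1.64, Mrc1 at 0.69 and Krt79 at 0.58; all of these but Marco were named after their values were seen. Siglecf at -0.11 and Pparg at -0.19, also named after their values were seen, were lower in WT without passing. The list had mean levels of 9.85 and 9.94 in WT, 9.55 in both IL4R KO pools, and 9.56 and 9.40 in transgenic lungs. Its markers went both ways, with the largest rises in Chil3 and Itgax, so this mean does not measure the number of alveolar macrophages. Mature dendritic cell markers had 4 higher among 9, with Cd83 at 1.32 and Fscn1, which did not pass, at 0.27. The others that passed were Ccl17 at 2.96, Batf3 at 1.78 and Ccl22 at 1.01. Ccr7 at -0.40, Zbtb46 at -0.16 and Flt3 at -0.06 were lower in WT without passing. All of these but Cd83 and Fscn1 were named after their values were seen. Mean levels of this list were 8.80 and 8.85 in WT against 7.96 to 8.08 in the other arrays. Endothelial markers had 1 higher of 8, Vwf at 0.70 (named after its value was seen), with Ramp2 at -0.11 and Cldn5 at 0.03. None of 9 ciliated cell markers passed in limma (1 at an unadjusted p under 0.05), with Tuba1a at 0.03 and Tppp3 at -0.48, nor any of 6 T cell markers (4 at an unadjusted p under 0.05), with Cd3e at -0.25 and Cd3d at -0.75. None of 11 liver markers passed in limma (0 at an unadjusted p under 0.05), with Cyp2e1 at -1.14 and Ttr at -0.21; their mean levels were 9.84 in the first IL4R KO array and 9.28 in the second WT array against 6.26 to 6.48 in the other arrays. No list held a marker that passed between transgenic and IL4R KO lungs in limma. In that comparison 10 of 75 markers had an unadjusted p under 0.05, beside 11.3% of all probe sets.

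**Figure D4:**
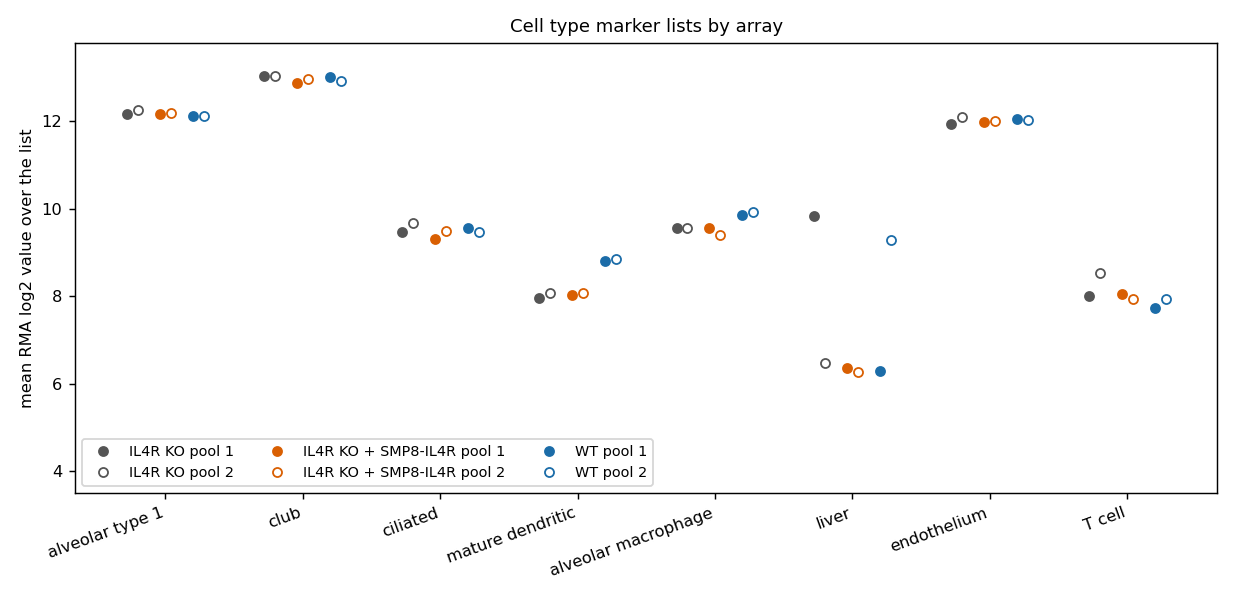
Mean RMA log2 value of each cell type marker list in each array, with filled points for pool 1 and open points for pool 2 of a genotype. Alveolar type 1 and endothelial lists vary little between arrays, the mature dendritic list is highest in both WT pools, and the liver list is high in pool 1 of IL4R KO and pool 2 of WT.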

How the data were processed

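Gene expression was measured on 6 Affymetrix arrays, 2 pools of 4 mice per genotype. The deposited log2 values were made by the authors with RMA (background correction, quantile normalization and a summary per probe set), a method named in the submitters' processing notes without its version. Precision is limited by the number of arrays.

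After removal of 64 array controls from 45101 probe sets, 45037 were tested. Of these, 34945 carried 1 gene in the platform annotation, 932 several and 9160 none, and 34741 were matched by Entrez identifier to RefSeq. A model with 1 mean per genotype was fitted to all 45037 (limma 3.58.1, R 4.3.3), all arrays sharing the spread (3 residual and 3.72 prior degrees of freedom), no intensity trend, and p-values adjusted over all of them (Benjamini-Hochberg). A probe set passed at adjusted p under 0.05. Differences are the group named ahead minus the other, values are log2, and SE and 95% intervals are limma's. The p-values set a difference against the spread between pools, which limma draws toward a value shared by all probe sets. Where the pools of a probe set lay very close, as for Sftpa1 1422334_a_at, the SE came largely from that shared value. The fit was checked on simulated data.

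Members and gene lists were chosen with earlier results of these data known. Named genes were all members, the 4 lowest p of each pathway list in WT against IL4R KO, the 2 brightest markers of each list, the 2 genes most like each member, and Il4ra. Replicate numbers are the labels' pool numbers. The alternatives were a filter on dim probe sets, 1 probe set per gene with that filter, an intensity trend, 4 arrays only, median centring, quantile normalization again, a replicate block and fits without certain arrays. Of gene positions, the promoter windows and the order of neighbouring genes in the RefSeq table were used.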

Additional observations from a re-analysis of the deposited data

How the results depend on the processing

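Each group had 2 arrays, and counts of calls moved with the fit. An intensity trend with robust hyperparameters called 8 member probe sets in WT against IL4R KO and 8 in transgenic against WT (15 and 9 pathway genes; 1075, 732 and, for transgenic against IL4R KO, 31 of all probe sets). Fitting the 4 arrays compared alone called 0 and 5 members (2 and 8 pathway genes; 322, 1064 and 0 of all). Using 1 probe set per gene together with the filter on dim probe sets, with 7 members tested, called 1 and 1 members, 8 pathway genes in WT and 12 probe sets for transgenic against IL4R KO. The filter on dim probe sets alone called 5 members in transgenic against WT (482 of the 23231 probe sets tested). Without the 2 arrays with liver transcripts, which leaves 1 residual degree of freedom, 0 and 0 members passed (3 and 3 pathway genes; 13 of all for transgenic against IL4R KO). Shared replicate numbers did not pair the arrays: the deviations correlated at -0.346 between WT and IL4R KO, -0.067 between WT and transgenic and 0.053 between IL4R KO and transgenic pools. With the replicate block, 3 and 1 members passed, 3 pathway genes in WT, and 16 probe sets for transgenic against IL4R KO. With the numbers of WT crossed, chosen after seeing the data, 1 and 1 members, 2 pathway genes in WT, and 435 and 0 probe sets passed for WT and for transgenic against IL4R KO. Across the settings other than leaving out 1 array, all probe sets called ranged from 322 to 1075 in WT against IL4R KO. For transgenic against WT they ranged from 337 to 1064, so member counts moved beside a moving background. Over 15 settings, 687 member differences were recomputed: leaving out 1 array kept direction and call in 246, ended a call in 20, made 6 and turned the sign in 16, and the other settings kept 363, ended 12, made 18 and turned 6. These counts are not over separate checks. Leaving out an array of the group outside a comparison cannot change the difference, and gave the same fit as the 4 arrays compared alone. The intensity trend, the filter on dim probe sets and the replicate blocks also leave the difference itself unchanged. In all these fits the direction was fixed in advance and only the call could move. The causes of the changes were not tested.

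Leaving out 1 array at a time gave 0 to 3 members in WT against IL4R KO, 0 to 5 in transgenic against WT and 0 in transgenic against IL4R KO. Pathway genes ranged from 2 to 8 and 1 to 8 in the former comparisons, and all probe sets from 127 to 1401, 102 to 1064 and 0 to 96.

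Differences that changed sign were all small and uncalled. Without the liver arrays, transgenic against IL4R KO gave -0.0512 for Abca3 1451731_at, -0.0177 for Lpcat1 1424459_at, 0.0041 for Sftpc 1418639_at and 0.0302 for Sftpd. Quantile normalization again gave 0.0065 for Sftpa1 1422334_a_at in that comparison, and median centring -2e-04 for Sftpc 1418639_at in WT. Leaving out 1 array, transgenic against IL4R KO ranged from -0.0512 to 0.11 for Abca3 1451731_at, -0.0177 to 0.0502 for Lpcat1 1424459_at, -0.0726 to 0.0452 for 1424460_s_at, -0.15 to 0.10 for 1451359_at, -0.0292 to 0.10 for Napsa 1430744_at, -0.0106 to 0.0041 for Sftpc 1418639_at and -0.0737 to 0.0302 for Sftpd. The dim Lpcat1 probe sets ranged from -0.16 to 0.0355 (1420293_at) and -0.17 to 0.0448 (1420294_at) in WT, and 1420294_at from -0.16 to 0.0335 in transgenic against WT.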
